A study of Mus musculus with 96 samples.

Results

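The sciatic nerve of mice taken off a high-fat diet was compared with that of mice kept on it. The comparison used 13 of the 96 libraries of the series, the 7 nerve libraries labelled DR and the 6 labelled HFD, and the 16966 of 22632 genes whose deposited log2 value reached log2 of 10 in at least 6 of these 13 libraries. All mice were male C57BL/6J (genotype label C57BL/6), were bought at 11 weeks of age, lived alone in a cage and began their diets at 12 weeks. The HFD group ate a lard-based diet with 60% of its energy from fat until tissue was taken at 26 weeks. The DR group ate the same diet until 18 weeks and a standard diet with 10% of its energy from fat from then to 26 weeks, so both groups had been fed fat. A further group of 6 nerve libraries came from mice that ate the standard diet throughout (labelled SD; below, SD after a ± sign is a standard deviation). A library was treated as 1 sample. The labels do not name the animal behind a library, so p-values measure the spread between libraries.

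The sciatic nerve holds axons whose cell bodies lie elsewhere, so its messenger RNA comes mainly from Schwann cells, which make myelin, from fibroblasts and the perineurial sheath, from vessels and immune cells, and from the fat around its fascicles. Long feeding of a fat-rich diet makes mice obese and can slow nerve conduction, and a return to a standard diet is a common way to ask whether such changes are reversible. Fat tissue of obese mice takes in macrophages and makes more leptin and more acute-phase proteins.

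The tissue label was checked against markers. Prx, which encodes periaxin, a scaffold protein of myelinating Schwann cells, had log2 values from 16.84 to 17.21 over the 13 libraries, and its median was above 99.9% of genes. The label SCN can also be read as a brain nucleus, but its peptide genes Vip and Grp had values from 2.19 to 2.60 and from 2.88 to 3.17, below the filter. Markers of adjoining tissue were present. For 18 skeletal muscle markers, the score (mean log2 value, centred per gene) reached 2.51 in HFD replicate 1 and 2.36 in HFD replicate 3, was 1.05 in DR replicate 1 and was at most 0.58 in the other 10 libraries. The adipocyte marker score (19 genes) ranged from -0.26 to 0.69 in DR and from -0.91 in HFD replicate 3 to 0.59 in HFD. In such bulk RNA, fewer cells of a type and less RNA per cell cannot be told apart. On the first principal component (25.55% of the variance) DR replicate 2 and HFD replicate 5 stood apart, at 32.46 and 22.71 against -17.59 to 5.86 for the other 11 libraries. Values without DR replicate 2 and HFD replicate 5 are given beside the gene groups they move most. On the second component (22%) HFD replicates 4 and 6 lay at -22.60 and -25.62 and HFD replicate 3 at 20.00. The remaining libraries lay from -5.87 to 12.03 on it.

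The data collected per gene were single log2 values on a scale adjusted for library size, with library medians from 7.47 to 7.57. The read depth is unknown. Genes were tested with limma in a fit of all 47 nerve libraries in their 7 regimens, with 0.05 as the threshold on the Benjamini-Hochberg adjusted p for calling a gene. Besides DR, HFD and SD, the regimens were labelled EX, KD, KDI and KDI_EX, with 7 libraries each. KD, KDI and KDI_EX mice ended on a diet with more of its energy from fat than HFD. EX mice ended on the same fat share as HFD. The estimate of spread was shared over all regimens, so most libraries behind it were neither DR nor HFD. No gene was called between DR and HFD (0 of 16966, 0.0%), and the lowest adjusted p was 0.186. At an unadjusted p under 0.05 there were 1260 genes (7.43%), of which 686 (4.04% of those tested) were higher and 574 (3.38%) lower in DR. Counts within gene lists below are to be read beside these shares. The groups did not overlap at all for 21 genes that were higher (0.124%) and 19 that were lower in DR (0.112%). Over all genes tested, 49.5% had a positive difference, and the median absolute difference was 0.06 on the log2 scale. The values below therefore describe the libraries measured, and none passed the test in this fit. When the fit held the 13 libraries alone, 5 genes were called (H2-Q10, Unc93a2, Cfd, Adgrg2 and Pck1, all higher in DR), and without HFD replicate 3 it was 11, of which 9 were lower in DR.

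The genes with the lowest p among those lower in DR included several that macrophages and inflamed fat tissue are known to make. Saa3 (GRCm38 chr7:46711998-46715700, minus strand), which encodes the acute-phase protein serum amyloid A3, had log2 values from 4.09 to 5.89 (median 4.30) in DR, from 4.18 to 8.65 (median 7.16) in HFD and from 4.05 to 5.55 (median 4.31) on the standard diet. In 4 of the 6 HFD libraries it was above every DR library. HFD replicate 3 (4.18) and replicate 2 (5.09) lay within the DR range. The difference in log2 value, DR minus HFD, was -2.11 ± 0.47 (SE), a level 4.33-fold lower, with a limma adjusted p of 0.21, and all 7 DR libraries were below the HFD mean.

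Itgad (chr7:128154376-128223816, plus strand) encodes integrin alpha D, an adhesion receptor of macrophages. Its log2 values ran from 4.60 to 6.25 (median 4.78) in DR, from 4.62 to 10.47 (median 8.98) in HFD and from 4.55 to 8.08 (median 4.67) on the standard diet. HFD replicate 3 had 4.62 and was the only HFD library within the DR range. The difference was -3.38 ± 0.74 (SE) in log2 value, or 10.4-fold, with a limma adjusted p of 0.186. On GRCm38 the gene spans other annotated genes on both strands, and the kit is not stated to mark the strand, so its reads may be shared. Mmp12 (chr9:7344381-7369499, plus strand), the macrophage elastase, had values from 5.26 to 6.32 (median 5.44) in DR, from 5.85 to 9.34 (median 8.38) in HFD and from 4.91 to 10.07 (median 5.93) on the standard diet. One standard diet library thus reached the highest value of all 3 groups. Its DR minus HFD difference was -2.43 ± 0.56 (SE; limma adjusted p = 0.223).

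Tph2 (chr10:115078641-115185022, minus strand), the enzyme that begins serotonin synthesis in neurons, had log2 values from 5.06 to 7.26 (median 6.10) in DR, from 4.85 to 9.93 (median 8.71) in HFD and from 4.81 to 6.80 (median 5.49) on the standard diet. Of the HFD libraries, 5 were above every DR library, and replicate 3 was below every DR library. The difference was -2.14 ± 0.53 (SE; limma adjusted p = 0.35). Lep, which encodes the fat-cell hormone leptin, had a smaller difference of -0.90 ± 0.56 (SE; limma adjusted p = 0.712), with values from 11.30 to 13.07 in DR and from 10.73 in replicate 3 to 14.34 in HFD. HFD replicate 3, low in Saa3, Itgad, Mmp12, Tph2 and Lep, also had the lowest adipocyte score (-0.91). Without it the differences were -2.62 for Saa3, -4.14 for Itgad, -2.85 for Mmp12, -2.81 for Tph2 and -1.37 for Lep. The first 4 were then called at limma adjusted p of 0.00246, 0.00246, 0.0247 and 0.00246. HFD replicate 3 was singled out by its low values in these same genes, so these calls are a description and no support. Over all alternatives the adjusted p reached 0.976 for Saa3 and Itgad and 0.987 for Mmp12 and Tph2. With the adipocyte and muscle marker scores as covariates the differences were -2.30 for Saa3, -3.60 for Itgad, -2.60 for Mmp12 and -2.41 for Tph2. The part of the fat content of a library in these values was not tested.

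**Figure D1:**
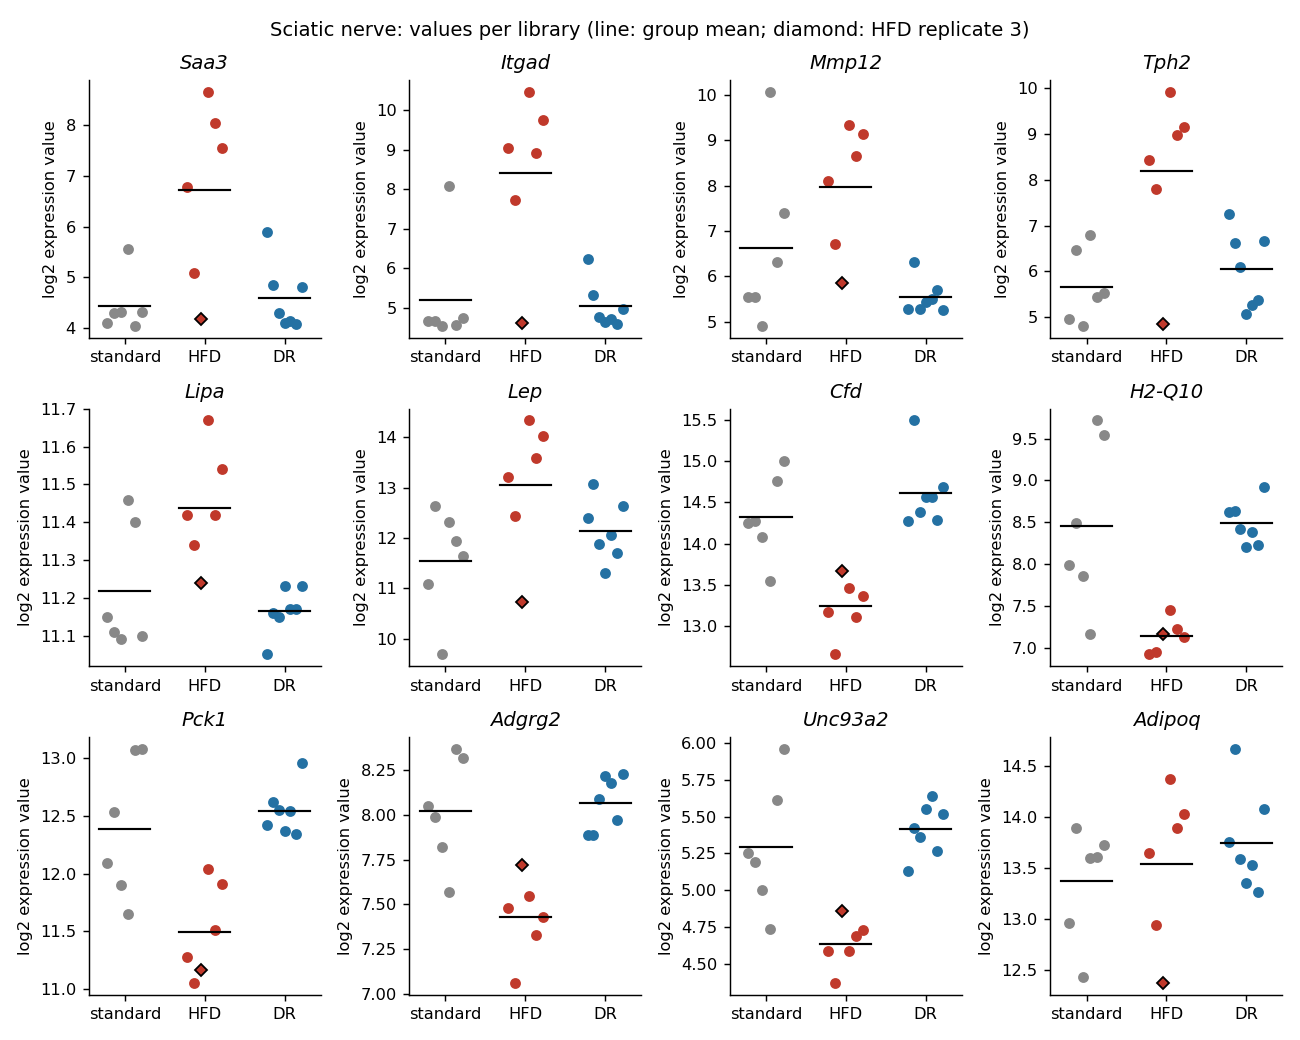
Log2 expression values of 12 genes in each sciatic nerve library on the standard diet (6), HFD (6) and DR (7); lines are group means and the diamond is HFD replicate 3. The DR and HFD libraries do not overlap for Cfd, H2-Q10, Pck1, Adgrg2, Unc93a2 and Lipa, and HFD replicate 3 sits among or below the DR libraries for Saa3, Itgad, Mmp12, Tph2 and Lep.

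Promoter sequences are shown for Saa3, Mmp12 and Lep because the 3 genes were lower in DR by 0.90 or more and each carries the motif TTGCNNAA, the core letters of binding sites of C/EBP factors, which act on fat-cell and acute-phase genes. The 250 bases before the gene start were taken from RefSeq (GRCm38.p6) at chr7:46715677-46715926 (minus strand), chr9:7344147-7344396 (plus strand) and chr6:29059971-29060220 (plus strand). They are printed on the gene's strand, and capitals mark the motif on either strand.
Saa3: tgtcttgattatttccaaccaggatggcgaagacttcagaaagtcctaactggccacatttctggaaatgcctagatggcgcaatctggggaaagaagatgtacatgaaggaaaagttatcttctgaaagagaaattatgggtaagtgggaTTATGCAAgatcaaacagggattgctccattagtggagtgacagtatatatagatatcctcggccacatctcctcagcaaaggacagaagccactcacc
Mmp12: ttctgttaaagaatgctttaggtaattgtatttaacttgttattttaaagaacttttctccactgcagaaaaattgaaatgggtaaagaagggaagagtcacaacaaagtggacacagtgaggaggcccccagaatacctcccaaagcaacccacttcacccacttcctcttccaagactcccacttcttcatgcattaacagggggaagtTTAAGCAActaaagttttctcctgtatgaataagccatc
Lep: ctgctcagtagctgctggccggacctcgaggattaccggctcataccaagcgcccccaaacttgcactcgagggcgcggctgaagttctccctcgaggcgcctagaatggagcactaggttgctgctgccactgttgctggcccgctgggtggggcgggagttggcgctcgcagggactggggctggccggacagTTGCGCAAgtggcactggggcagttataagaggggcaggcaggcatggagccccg
The match began 99 bases before the RefSeq start of Saa3, 39 before that of Mmp12 and 55 before that of Lep. For Saa3 and Mmp12 that start lies inside the GENCODE gene whose span is given above. Of the 12 genes with the lowest p among those lower in DR, 11 had a promoter in the table and 3 held the motif. The motif was found in 10.8% of the 27025 genes with a promoter, in 10 of 23 of the acute-phase and inflammation list and in 4 of 15 adipocyte markers, most of which had positive differences. A match is a description of letters and shows no binding.

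Other genes of this kind differed in the same direction. Il1rn, the antagonist of the interleukin 1 receptor, had log2 values from 3.60 to 3.97 in DR and from 3.66 to 6.02 in HFD. Its difference was -1.13 ± 0.33 (SE; limma adjusted p = 0.465). Itgax, which encodes CD11c and marks lipid-associated macrophages, had values from 5.78 to 6.66 in DR and from 6.21 to 7.91 in HFD, a difference of -1.07 ± 0.29 (SE; limma adjusted p = 0.438). Adam8, a metalloprotease of leukocytes, was lower by 1.11 ± 0.30 (SE) in log2 value. Haptoglobin (Hp) differed by -1.05 ± 0.41 (SE), Lrg1 by -0.76 ± 0.30 and the oxytocin receptor gene Oxtr by -1.35 ± 0.38 in log2 value, each with 7 of 7 DR libraries below the HFD mean. For all 3 genes HFD replicate 3 was below every DR library, and 1 more HFD library for Oxtr and Lrg1 and 2 for Hp lay within the DR range. Of the 22 tested genes of the acute-phase and inflammation list, 4 were lower at an unadjusted p under 0.05 and 0 higher, and the list median was 0.00. With each library left out in turn the count of lower genes ran from 2, without HFD replicate 4, to 6, without HFD replicate 3. The members that were lower were Saa3, Il1rn, Hp and Lrg1.

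The macrophage marker list as a whole did not follow Itgax. Of its 18 genes, 9 had a positive and 9 a negative difference, and the median was 0.01 on the log2 scale. The count at an unadjusted p under 0.05 was 1, against 7.43% of all genes tested. Among the other members, Gpnmb and Cd68 had differences of -0.33 ± 0.20 and -0.33 ± 0.22 (SE) and Cd9 one of 0.10. The mean level of the list ranged from 9.66 to 10.28 in DR and from 9.59 to 10.35 in HFD. No count above 1 was seen with any library left out except without DR replicate 2, where it was 2.

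Smaller differences with tight groups were found for genes of other roles. Lipa (chr19:34492318-34527474, minus strand) encodes lysosomal acid lipase, which frees fatty acids from stored esters. Its log2 values were 11.05 to 11.23 (median 11.17) in DR, 11.24 to 11.67 (median 11.42) in HFD and 11.09 to 11.46 (median 11.13) on the standard diet. DR and HFD did not overlap, although HFD replicate 3 (11.24) was only just above. The difference was -0.27 ± 0.06 (SE; limma adjusted p = 0.186). Fam20c, a kinase of secreted proteins, was lower by 0.44 ± 0.10 (SE), the actin-bundling gene Palld by 0.47 ± 0.12 and the semaphorin receptor gene Plxnd1 by 0.23 ± 0.06 in log2 value. Map1a, which encodes a microtubule-associated protein, differed by -0.24 ± 0.06, Mtss2 by -0.23 ± 0.06 and Pi4k2a, a phosphatidylinositol kinase, by -0.14 ± 0.04. Ret, the receptor of glial-derived neurotrophic factors, differed by -0.47 ± 0.18 (SE), Plppr4 by -0.63 ± 0.22 and Cnn2, an actin-binding calponin, by -0.15 ± 0.04. Of 21 neurotrophic factor and receptor genes, Ret was the 1 lower at an unadjusted p under 0.05 and 0 were higher. Over all genes tested 3.38% were lower and 4.04% higher at that threshold.

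Genes of mature fat cells and of fat synthesis were among those higher in DR. Cfd (chr10:79890853-79892655, plus strand) encodes adipsin, the complement factor D that fat cells secrete. Its log2 values were 14.28 to 15.50 (median 14.57) in DR, 12.65 to 13.67 (median 13.26) in HFD and 13.54 to 15.01 (median 14.26) on the standard diet. Every DR library was above every HFD library. The difference was 1.38 ± 0.30 (SE), or 2.60-fold, with a limma adjusted p of 0.186 in the 7-group fit and 0.0337 in the fit of the 13 libraries. Pck1 (chr2:173153048-173159273, plus strand), the enzyme that starts glycerol and glucose synthesis from oxaloacetate, had values of 12.34 to 12.96 (median 12.54) in DR, 11.05 to 12.04 (median 11.40) in HFD and 11.65 to 13.08 (median 12.31) on the standard diet. It was higher by 1.05 ± 0.31 (SE; limma adjusted p = 0.465), again with no overlap between DR and HFD.

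H2-Q10 (chr17:35470089-35474563, plus strand), a secreted class I molecule known mainly from liver, had log2 values of 8.20 to 8.92 (median 8.42) in DR, 6.92 to 7.45 (median 7.14) in HFD and 7.17 to 9.72 (median 8.24) on the standard diet. Its difference was 1.35 ± 0.34 (SE; limma adjusted p = 0.373 in the 7-group fit and 0.000136 in the fit of the 13 libraries, with 0.000136 to 0.987 over all alternatives). Near-identical genes of the same family share reads with H2-Q10, so the value is uncertain. Adgrg2, an adhesion receptor coupled to G proteins, had values of 7.89 to 8.23 in DR, 7.06 to 7.72 in HFD and 7.57 to 8.37 on the standard diet, a difference of 0.64 ± 0.18 (SE). Unc93a2, which has close copies, had 5.13 to 5.64 in DR, 4.37 to 4.86 in HFD and 4.74 to 5.96 on the standard diet, a difference of 0.77 ± 0.20. For these 5 genes the standard diet libraries spread over a wider range than the DR libraries, and the 7-group fit shares 1 estimate of spread over all regimens.

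Of the 19 adipocyte markers tested, 14 had a positive difference, 4 were higher at an unadjusted p under 0.05 (Cfd, Pck1, Retn and Adig) and 0 lower. The list median was 0.21 in log2 value against -0.001 for all genes. It was 0.10 without DR replicate 2 and 0.13 without HFD replicate 2, with 2 higher each, and 0.05 without HFD replicate 3, with 2 higher and 1 lower. The members did not move as one. Adiponectin (Adipoq), a hormone of mature fat cells, differed by 0.21 ± 0.33 (SE) and by -0.03 without HFD replicate 3, while Lep was lower by 0.90. Resistin (Retn) differed by 0.72 ± 0.32 and by 0.48 without DR replicate 2, and Adig by 0.62 ± 0.26 and by 0.41. With the adipocyte and muscle scores as covariates Cfd was higher by 1.23 and Pck1 by 0.84 (limma adjusted p of 0.00188 and 0.00335). Over all alternatives the limma adjusted p ran from 0.00188 to 0.61 for Cfd and from 0.00335 to 0.987 for Pck1. Both genes are part of the adipocyte score used as covariate, so these p-values are a description. In that fit the list median was -0.01, with 9 of 19 positive, 4 higher and 5 lower at an unadjusted p under 0.05.

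Of 21 genes of fatty acid synthesis, 17 had a positive difference and 4 were higher at an unadjusted p under 0.05, with a median of 0.05. Without DR replicate 2 and HFD replicate 5 together 0 were higher and the median was 0.02. Fasn, the fatty acid synthase, had log2 values from 13.14 to 14.81 (median 14.11) in DR, from 12.75 to 13.90 (median 13.23) in HFD and from 12.72 to 15.19 (median 14.06) on the standard diet. It was higher by 0.63 ± 0.25 (SE; limma adjusted p = 0.659), with 5 of 6 HFD libraries inside the DR range and 1 below it. Acaca, the acetyl-CoA carboxylase that precedes it, differed by 0.40 ± 0.16, Acss2 by 0.36 ± 0.15 and the lipogenic regulator Thrsp by 0.66 ± 0.32 in log2 value. Scd1, the main desaturase of fatty acids, differed by 0.76 ± 0.40 and did not reach an unadjusted p under 0.05 (limma adjusted p = 0.668). The count of 4 was 0 without DR replicate 7, 1 without HFD replicate 5, 2 without DR replicate 1, DR replicate 2 or HFD replicate 3 and 6 without HFD replicate 4 or 6. The fat-responsive genes Pdk4 and Angptl4 differed by -0.25 ± 0.21 and -0.11 ± 0.19, and of 16 targets of PPAR factors 0 were at an unadjusted p under 0.05. The xenobiotic enzyme gene Cyp1a1, with values from 4.0 to 4.28 in the 13 libraries, differed by 0.05 ± 0.25.

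Further genes with a low p that were higher in DR had small differences. Rrp15, of ribosomal RNA processing, differed by 0.19 ± 0.05 (SE) in log2 value, the mitochondrial ribosomal gene Mrps9 by 0.15 ± 0.04 and Gin1 by 0.20 ± 0.06, and none of the 3 overlapped between the groups. Syce2, a synaptonemal complex gene, differed by 0.32 ± 0.07, Dpm1, the catalytic subunit of a mannose transferase, by 0.23 ± 0.07 (0.15 without DR replicate 2), Dynlt1f, a dynein light chain with near-identical copies, by 0.23 ± 0.07 and Zfp868 by 0.16 ± 0.05. Their DR and HFD ranges overlapped by 1 or 2 HFD libraries.

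Interferon-stimulated genes, which cells switch on through type I or II interferon receptors and STAT and IRF factors, were slightly higher in DR. Of 32 tested, 26 had a positive difference, and the list median was 0.11 in log2 value. At an unadjusted p under 0.05, 9 were higher and 0 lower, against 4.04% and 3.38% of all genes tested. Irf7, the master regulator of the response, had log2 values of 8.49 to 9.04 (median 8.76) in DR, 8.24 to 8.77 (median 8.42) in HFD and 8.41 to 8.98 (median 8.71) on the standard diet. All 7 DR libraries were above the HFD mean, and 2 HFD libraries lay within the DR range. The difference was 0.26 ± 0.09 (SE; limma adjusted p = 0.563).

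Bst2, which tethers budding virus, differed by 0.25 ± 0.09 (SE), Usp18, which removes ISG15 and curbs the response, by 0.30 ± 0.11, the RNA sensor gene Dhx58 by 0.19 ± 0.08 and Ifit3b by 0.32 ± 0.13. Ifit3b is a near copy of Ifit3, and reads may be split between them. The list score was highest in DR replicate 5 (0.30) and replicate 4 (0.20), and lowest in HFD replicate 3 (-0.18). DR replicate 3 (-0.15) lay within the HFD range. Without DR replicate 5 the count of higher genes was 3 and the median 0.06, without DR replicate 2 it was 5 and 0.10, without HFD replicate 3 it was 6, and over the remaining left-out libraries it was 7 to 11.

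Genes of antigen presentation and guanylate-binding proteins, most of them targets of interferon gamma, gave 18 of 21 positive differences and a median of 0.14. At an unadjusted p under 0.05, 5 were higher and 1 lower, against 4.04% and 3.38% of all genes tested. The immunoproteasome genes Psmb8, Psmb9 and Psmb10, which cut peptides for class I molecules, differed by 0.26 ± 0.08, 0.22 ± 0.10 and 0.15 ± 0.06 (SE). The peptide transporter gene Tap1 differed by 0.25 ± 0.11, and Tap1 and Psmb9 overlap on opposite strands. Gbp3 had log2 values of 9.93 to 10.64 (median 10.10) in DR, 9.69 to 9.99 (median 9.89) in HFD and 9.88 to 10.23 (median 9.98) on the standard diet, a difference of 0.31 ± 0.10 (SE; limma adjusted p = 0.553). The score was highest in DR replicate 4 (0.37), and without that library 3 genes were higher with a median of 0.09. It was lowest in HFD replicate 2 (-0.31), without which 2 were higher with a median of 0.08. Macrophage markers, whose cells carry such genes at a high level, had a median of 0.01, and their part in these lists was not tested.

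Promoters of Ifit3b, Bst2 and Gbp3 are shown because the 3 genes were among the higher members and each holds the core of the interferon-stimulated response element (ISRE), searched as GAAA, any 2 bases and GAAA again. The 250 bases before the gene start came from RefSeq (GRCm38.p6) at chr19:34607707-34607956 (plus strand), chr8:71537473-71537722 (minus strand) and chr3:142559794-142560043 (plus strand). Capitals mark the motif on either strand, and overlapping matches run together.
Ifit3b: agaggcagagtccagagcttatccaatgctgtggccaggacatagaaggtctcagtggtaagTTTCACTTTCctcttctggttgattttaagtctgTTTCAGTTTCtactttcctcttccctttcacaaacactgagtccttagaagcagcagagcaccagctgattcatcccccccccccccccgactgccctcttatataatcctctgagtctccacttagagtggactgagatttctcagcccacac
Bst2: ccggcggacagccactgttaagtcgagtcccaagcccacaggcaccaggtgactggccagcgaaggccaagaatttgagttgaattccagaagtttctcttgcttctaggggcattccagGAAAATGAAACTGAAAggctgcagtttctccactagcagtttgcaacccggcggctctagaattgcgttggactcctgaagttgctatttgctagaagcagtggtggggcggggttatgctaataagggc
Gbp3: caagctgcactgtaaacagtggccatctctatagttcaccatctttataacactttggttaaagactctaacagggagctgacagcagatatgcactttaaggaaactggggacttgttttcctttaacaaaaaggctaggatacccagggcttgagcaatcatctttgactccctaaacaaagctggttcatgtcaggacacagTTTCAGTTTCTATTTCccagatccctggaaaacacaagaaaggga
Each of the 3 held 2 matches, which overlapped in Bst2 and Gbp3. They began 188 and 154 bases before the start of Ifit3b, 130 and 124 before Bst2 and 45 and 39 before Gbp3. The motif was found in 10 of the 22 interferon-stimulated genes with a promoter and in 6 of 15 of the antigen presentation list, against 3.46% of the 27025 genes. It was also in 4 of 23 of the acute-phase list, and the Saa3 promoter printed above held 1 match.

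Genes of protein synthesis, protein breakdown and respiration had small positive differences that were shared across nearly all members. Their size, and the counts at an unadjusted p under 0.05, depended on single libraries. Of 44 cytosolic ribosomal protein genes, 44 had a positive difference and 28 were higher at an unadjusted p under 0.05, with a median of 0.20 in log2 value. Rps4x differed by 0.19 ± 0.07 (SE). The score of the list was 0.55 in DR replicate 2 and -0.14 to 0.17 in the other 6 DR libraries, and 0.21 in HFD replicate 5 and -0.36 to -0.04 in the other 5 HFD libraries. The count of 28 was 0 without DR replicate 2, 0 without HFD replicate 6, 5 without HFD replicate 4, 11 without DR replicate 5, 12 without HFD replicate 1 and 44 without HFD replicate 5. Without DR replicate 2 all 44 kept a positive difference, with a median of 0.12, and without DR replicate 2 and HFD replicate 5 together it was 27 genes and 0.19.

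All 76 nuclear genes of the 5 respiratory complexes had a positive difference, with a median of 0.15 and 12 higher at an unadjusted p under 0.05. Without DR replicate 2 these were 67 positive, a median of 0.06 and 0 higher, and the count was also low without HFD replicate 6 (1), DR replicate 1 (5) and HFD replicate 4 (5). It was 46 without HFD replicate 5, 35 without DR replicate 4, 25 without DR replicate 3 and 20 without DR replicate 6. Without DR replicate 2 and HFD replicate 5 together 70 were positive and 4 higher, with a median of 0.12. Examples were Ndufv2 and Ndufc2 of complex I at 0.19 ± 0.08 and 0.21 ± 0.09 (SE), Uqcrb of complex III at 0.18 ± 0.09, Cox6c of complex IV at 0.26 ± 0.12 and Atp5h of the ATP synthase at 0.17 ± 0.08 in log2 difference. Without DR replicate 2 those of Ndufv2, Ndufc2, Uqcrb and Atp5h were 0.11, 0.12, 0.10 and 0.09. Of 13 mitochondrially encoded genes, 12 had a positive difference, with mt-Co2 at 0.22 ± 0.10 and mt-Nd3 at 0.25 ± 0.11, and without HFD replicate 5 only 6 were positive and the median was 0.00. All 33 mitochondrial ribosomal genes were positive, with 7 higher (from 2, without DR replicate 2 or HFD replicate 6, to 17, without HFD replicate 5), among them Mrpl27 at 0.21 ± 0.07 (0.13 without DR replicate 2) and Mrps5 at 0.10 ± 0.03.

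Of 27 proteasome genes, 26 were positive and 14 higher at an unadjusted p under 0.05, with a median of 0.10. Psma2 and Psmb7, subunits of the core particle, each differed by 0.15, with SE of 0.05 and 0.06, and by 0.09 and 0.07 without DR replicate 2. The list score was 0.38 in DR replicate 2 and -0.09 to 0.03 in the other 12 libraries, and without that library 0 genes were higher and the median was 0.05. The count was 4 without HFD replicate 6, 6 without HFD replicate 1 or 2, 7 without DR replicate 7 and 9 without HFD replicate 3, and 4 without DR replicate 2 and HFD replicate 5 together. Sod1, the cytosolic superoxide dismutase, differed by 0.23 ± 0.08 and by 0.15 without DR replicate 2. Among immediate early genes, Ier2 was the 1 of 23 higher at an unadjusted p under 0.05, at 0.32 ± 0.14. Over all genes tested this share was 4.04%.

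**Figure D2:**
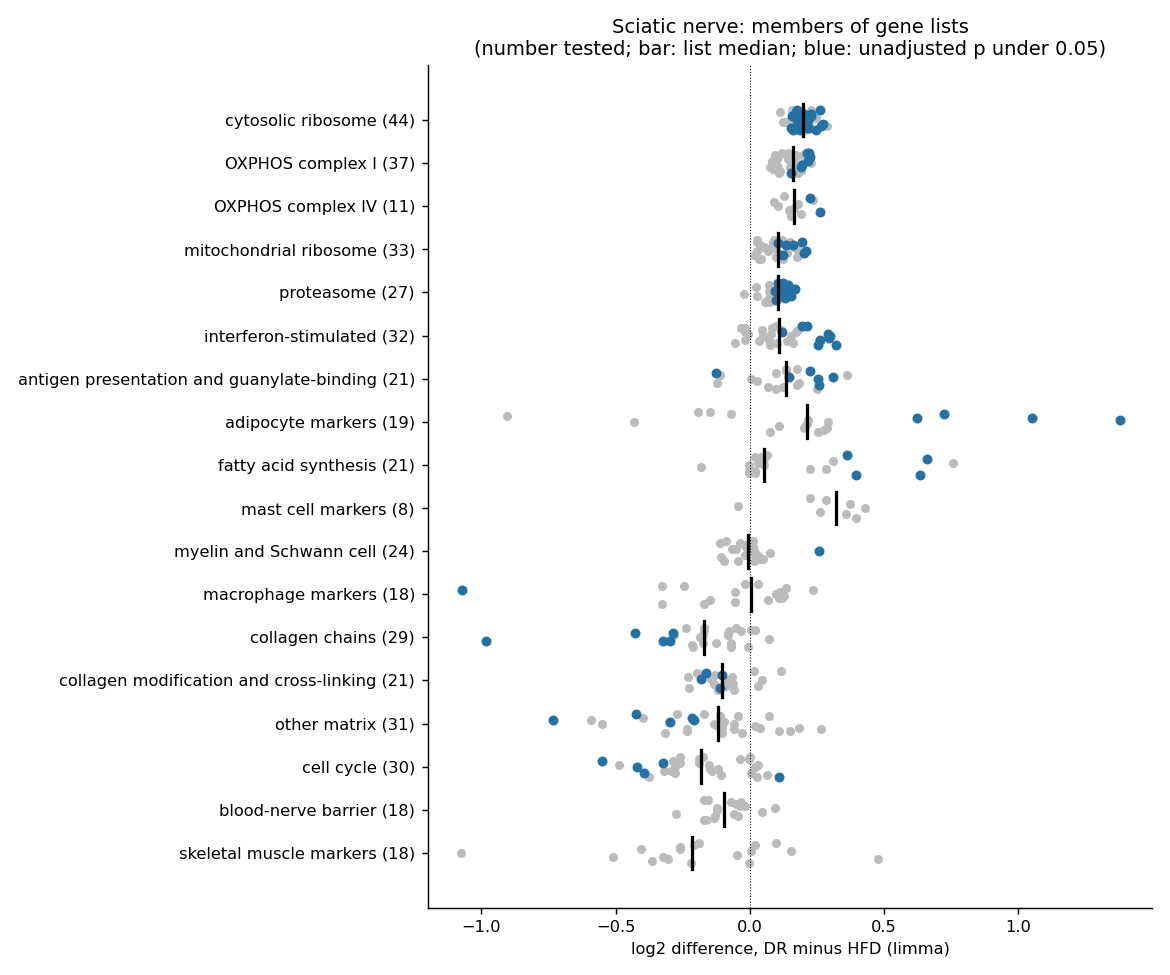
Log2 difference, DR minus HFD, of each tested gene in 18 gene lists (number tested in brackets); bars are list medians and blue points have an unadjusted p under 0.05. The ribosomal and respiratory genes, and all but 1 of the 27 proteasome genes, lie in narrow bands above 0, collagen and other matrix genes lie mostly below 0, and myelin genes lie around 0.

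Genes of the extracellular matrix were mostly lower in DR. Of 29 collagen chains, 26 had a negative difference, and the median was -0.17 in log2 value. At an unadjusted p under 0.05, 5 were lower and 0 higher, against 3.38% and 4.04% of all genes tested. Col4a1 and Col4a2, which form the main collagen of basal laminae around Schwann cells and vessels, are read from a shared start on opposite strands. Col4a1 had log2 values of 14.41 to 14.81 (median 14.65) in DR, 14.61 to 15.33 (median 14.90) in HFD and 14.34 to 14.91 (median 14.50) on the standard diet. All 7 DR libraries were below the HFD mean, and 2 HFD libraries lay within the DR range. The differences were -0.29 ± 0.10 (SE; limma adjusted p = 0.614) for Col4a1 and -0.30 ± 0.11 for Col4a2.

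Col6a3, whose chain also yields a peptide released by fat, differed by -0.43 ± 0.17 (SE), Col6a5 by -0.98 ± 0.42 and Col12a1 by -0.32 ± 0.15. Col6a5 differed by -0.69 without DR replicate 2. The score of the list was highest in HFD replicates 6 (0.31) and 4 (0.24) and lowest in DR replicate 2 (-0.35), and the other 6 DR libraries lay from -0.09 to 0.07. The count of 5 lower chains was 3 without DR replicate 2, 1 without HFD replicate 4, 2 without HFD replicate 6 and 9 without HFD replicate 3.

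Enzymes that modify and cross-link collagen gave 17 of 21 negative differences, with 4 lower at an unadjusted p under 0.05 (1 without HFD replicate 4, 2 without DR replicate 1, 6 without HFD replicate 3). They were the lysyl hydroxylase genes Plod1 at -0.16 ± 0.05 and Plod3 at -0.11 ± 0.05, the prolyl hydroxylase gene P3h1 at -0.10 ± 0.04 and lysyl oxidase (Lox) at -0.18 ± 0.08 (SE). Of 31 other matrix genes, 24 were negative and 5 lower, with 2 lower without DR replicate 2 or HFD replicate 6 and 3 without HFD replicate 4. They were Hspg2 (perlecan) at -0.22 ± 0.08, Lama5 at -0.21 ± 0.08, Emilin1 at -0.30 ± 0.12, Comp at -0.73 ± 0.32 and Thbs1 at -0.43 ± 0.21, the last 2 being thrombospondins. Without DR replicate 2 the differences of Comp and Thbs1 were -0.56 and -0.31. Fibroblast markers gave 7 of 8 positive differences, with a median of 0.08 and 0 at an unadjusted p under 0.05. With each library left out in turn, 5 to 7 were positive. The lists share genes, since Dcn and Lum are also among the other matrix genes and Col1a1 among the collagen chains. The part of fibroblasts in the matrix values was not tested.

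Genes of the cell cycle gave 24 of 30 negative differences, with a median of -0.18. At an unadjusted p under 0.05, 4 were lower and 1 higher, against 3.38% and 4.04% of all genes tested. Mki67, which marks dividing cells, had log2 values of 6.76 to 7.56 (median 7.21) in DR, 7.33 to 8.26 (median 7.69) in HFD and 6.62 to 9.02 (median 7.35) on the standard diet. It differed by -0.55 ± 0.26 (SE), Ccna2 by -0.40 ± 0.18, the spindle motor gene Kif11 by -0.32 ± 0.15 and Ube2c by -0.42 ± 0.20, and Pcna, which also serves DNA repair, was the higher one at 0.11 ± 0.05 (0.07 without DR replicate 2). The count of 4 lower was 0 without DR replicate 3 or HFD replicate 4, 1 without DR replicate 2 or 7, 2 without HFD replicate 2, 5 or 6 and 7 without HFD replicate 3. One standard diet library was above all 13 others for Mki67, Ccna2, Kif11 and Ube2c.

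Myelin and Schwann cell genes showed little difference. Of 24 tested, 12 had a positive difference, the range was -0.11 to 0.26 and the median -0.01 in log2 value. Pmp2, the fatty-acid-binding protein of peripheral myelin, was the 1 gene at an unadjusted p under 0.05, against 7.43% of all genes tested. Its log2 values were 13.25 to 13.68 in DR, 12.99 to 13.25 in HFD and 13.14 to 13.46 on the standard diet. The DR minus HFD difference was 0.26 ± 0.13 (SE). Its groups met at 13.25. Of 17 axonal and channel genes and 13 genes of repair Schwann cells, 0 were at an unadjusted p under 0.05.

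Other cell types gave small medians. All 5 perineurial markers had negative differences, from -0.15 to -0.06, with 0 at an unadjusted p under 0.05, and the median of -0.14 was -0.05 without DR replicate 2. Of 18 genes of the blood-nerve barrier 16 had a negative difference (median -0.10). Among 8 endothelial markers 1, the receptor gene Flt1, was lower at an unadjusted p under 0.05, by 0.26 ± 0.13 (SE), against 3.38% of all genes tested. The endothelial count was 0 without DR replicate 2, DR replicate 5, HFD replicate 4 or HFD replicate 6. The mast cell proteases Tpsb2 and Cma1 differed by 0.43 ± 0.24 and 0.40 ± 0.25, and 7 of 8 mast cell markers were positive with a median of 0.32 and 0 at an unadjusted p under 0.05. The median was 0.19 without HFD replicate 2, whose mast cell score of -0.75 was the lowest of the 13. Skeletal muscle markers had a median of -0.21, with 0 of 18 at an unadjusted p under 0.05, and the median was 0.32 without HFD replicate 1 and 0.31 without HFD replicate 3.

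**Figure D3:**
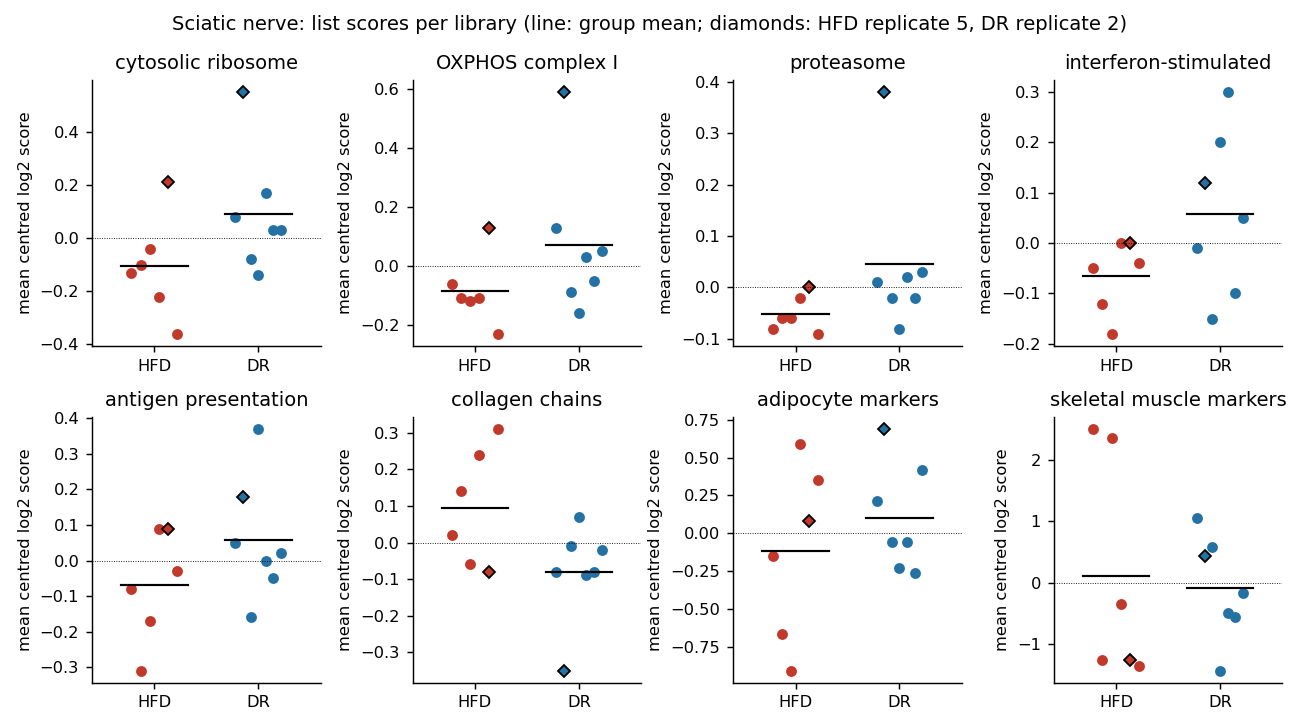
Mean centred log2 score of 8 gene lists in each of the 6 HFD and 7 DR nerve libraries; lines are group means and diamonds are HFD replicate 5 and DR replicate 2. DR replicate 2 has the highest ribosome (0.55), complex I (0.59) and proteasome (0.38) scores and the lowest collagen score (-0.35), and the skeletal muscle score is high in 2 HFD libraries.

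The same genes were set beside the standard diet group. These contrasts share libraries with DR against HFD, so their values are given side by side and no relation between them was tested. HFD against the standard diet gave 0 called genes and 3107 (18.3%) at an unadjusted p under 0.05, of which 1717 (10.1%) were higher and 1390 (8.19%) lower in HFD. DR against the standard diet gave 0 called and 1679 (9.90%), of which 764 (4.5%) were higher and 915 (5.39%) lower in DR. Itgad was 3.21 ± 0.77 (SE) higher in HFD than on the standard diet in log2 value, and DR differed from the standard diet by -0.16 ± 0.74. For Saa3 these were 2.27 ± 0.49 and 0.16 ± 0.47, and for Tph2 2.53 ± 0.55 and 0.38 ± 0.53.

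For Cfd, HFD minus standard diet was -1.08 ± 0.31 (SE) and DR minus standard diet 0.29 ± 0.30, and for H2-Q10 the values were -1.32 ± 0.35 and 0.03 ± 0.34. DR thus lay within 1 SE of the standard diet for these 5 genes. Mmp12 and Adam8 lay elsewhere, with DR below the standard diet by 1.09 ± 0.56 and 0.71 ± 0.30 in log2 value. The interferon genes Usp18 and Ifit3b differed by -0.03 ± 0.12 and 0.04 ± 0.14 between HFD and the standard diet, and DR was above the standard diet by 0.27 ± 0.11 and 0.36 ± 0.13. Both were highest in DR replicate 5, without which DR minus HFD was 0.19 for Usp18 and 0.21 for Ifit3b. Irf7 differed by -0.24 ± 0.09 between HFD and the standard diet and by 0.02 ± 0.09 between DR and the standard diet. List medians of HFD minus standard diet and of DR minus standard diet were -0.23 and -0.02 for cytosolic ribosomal genes, 0.10 and -0.04 for collagen chains, -0.02 and -0.21 for cell cycle genes and -0.04 and 0.09 for interferon-stimulated genes.

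Gastrocnemius muscle of the same regimens (7 DR and 7 HFD libraries) was fitted on its own scale. There 4 of 15430 genes (0.0259%) were called, Saa3, Tph2, Oxtr and Lrg1, all lower in DR, and 766 (4.96%) were at an unadjusted p under 0.05, with 457 (2.96%) higher and 309 (2.0%) lower. Saa3 differed by -1.31 ± 0.18 (SE) in log2 value in muscle, from 3.66 ± 0.63 (SD, n = 7) in HFD to 2.35 ± 0.08 in DR. The filter value of 3.32 was reached by 6 of 7 HFD and 0 of 7 DR muscle libraries for Saa3 and likewise for Itgad. Both passed it only through HFD, so the call of Saa3 and the difference of Itgad in muscle support nothing. In muscle the log2 differences of Tph2, Oxtr and Lrg1 were -1.8 ± 0.34, -2.02 ± 0.41 and -0.93 ± 0.19 (SE), with limma adjusted p of 0.031, 0.0454 and 0.0454. Tph2 was near the filter value in muscle, at 3.51 to 3.97 in DR and 3.70 to 6.89 in HFD. Itgad differed by -2.68 ± 0.58 in muscle and Lep by -1.67 ± 0.49. Adipocyte markers in muscle had a median of -0.26, with 3 of 19 positive, 1 higher and 5 lower at an unadjusted p under 0.05, and their part in the muscle values was not tested.

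The difference between tissues was tested for 14766 genes, and 0 were called (0.0%). At an unadjusted p under 0.05 there were 748 (5.07%), 405 (2.74%) higher and 343 (2.32%) lower in nerve relative to muscle. Among the genes with the lowest p, Adig was higher by 0.62 ± 0.26 in nerve and lower by 0.59 ± 0.16 (SE) in muscle, a difference of 1.22 ± 0.30 (adjusted p = 0.698 from the limma estimates). Adig is itself an adipocyte marker, and the list medians were 0.21 in nerve and -0.26 in muscle. Palld differed by -0.47 ± 0.12 in nerve and 0.09 ± 0.09 in muscle. Ucp3, a mitochondrial carrier of muscle, differed by -0.16 ± 0.10 in nerve and 0.51 ± 0.12 in muscle. S100a1, Tmem205, Rrp15 and Dcps were higher in nerve and Tmie, Dixdc1 and Zfp949 lower, relative to muscle, by 0.21 to 0.48 in either direction, with adjusted p of 0.817 each. Cfd was 1.08 ± 0.45 above its muscle difference of 0.29 ± 0.34. List medians for cytosolic ribosomal genes were 0.20 in nerve and -0.09 in muscle (0 of 44 positive), and those for collagen chains were -0.17 and -0.16.

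**Figure D4:**
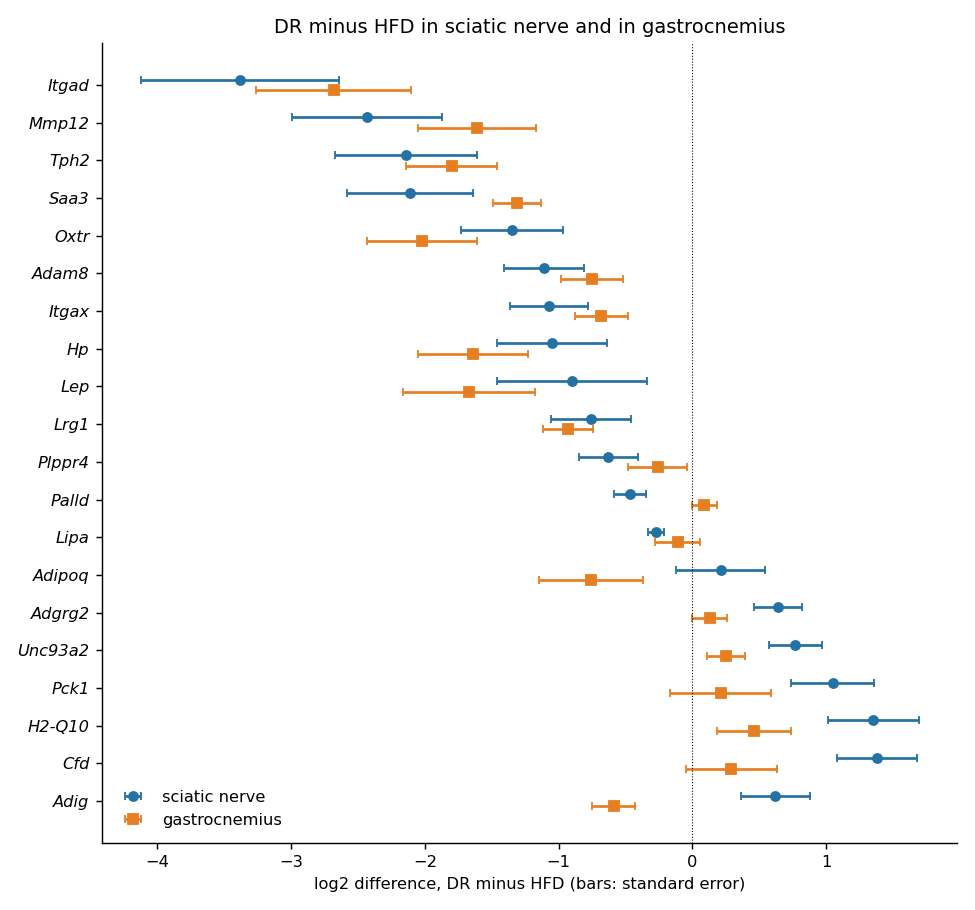
Log2 difference, DR minus HFD, with its limma standard error for 20 genes in sciatic nerve (circles, 7 and 6 libraries) and gastrocnemius (squares, 7 and 7 libraries). Itgad, Mmp12, Tph2, Saa3 and Oxtr are below 0 in both tissues, and Adig is at 0.62 in nerve and -0.59 in muscle. In muscle, Saa3 and Itgad passed the filter only through HFD libraries.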

How the data were processed

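Messenger RNA of sciatic nerve and gastrocnemius was sequenced in paired ends, per the labels. Tools listed in the submitters' processing notes were STAR 2.7.8a, RSEM 1.3.3 and DESeq2, besides cutadapt 2.3, MultiQC 1.7 and FastQC 0.11.8, with the build GRCm38. The authors deposited log2 values per gene, which were read per library and joined into 1 table per tissue. The transform is not given in the sources used here, fold changes of low genes may be shrunken, and the counts and depth are unknown. Symbols were matched to GENCODE M21 for 22054 of 22632 nerve genes.

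Genes were kept at log2 of 10 or more in at least 6 of the 13 libraries. A limma 3.58.1 fit (R 4.3.3; trended, robust prior) of the 7 nerve regimens gave DR minus HFD, with Benjamini-Hochberg adjustment over all 16966 genes. On simulated data, 37.6% of changed genes were recovered at a log2 change of 0.25, 84.4% at 0.5 and 96% at 1. The 250 changed genes per size were pooled over several simulated sets. Their noise was normal, independent between genes and equal in all groups. The rates therefore do not cover libraries that stand apart or groups of unequal spread, as in the real data. Muscle was fitted separately, and the tissue difference used Satterthwaite degrees of freedom. Its standard errors treat nerve and muscle libraries as independent, although the labels do not say whether both came from the same mice. A list score is the mean centred log2 value of its tested genes. Groups followed the labels, and alternatives covered the libraries fitted, filters, scaling, weights, marker covariates and each library left out.

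Named genes were the 12 lowest p per direction with a mean of at least 5 and medians differing by at least 50% of the fitted change, up to 5 per list, the 5 lowest p per direction between tissues, and a fixed set, of which some are not reported here. Members and lists were chosen with earlier results of these data known, so they are descriptions. Figures used matplotlib 3.10.9.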

Additional observations from a re-analysis of the deposited data

Results flagged for a closer look

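Of 290 tests for 1 library far from the rest of its group, 46 met the criterion, and chance alone marks about 1 in 20. DR replicate 2 accounted for 35. Its log2 values were high for Cfd (15.50), Rrp15 (8.79), Dpm1 (10.23), Mmp12 (6.32), Adig (9.75), Retn (13.26), Pcna (11.67), Psma2 (11.98), Psmb7 (12.38) and Ndufv2 (12.62). They were also high for Ndufc2 (11.47), Uqcrb (11.67), Atp5h (12.83), Mrpl27 (10.60), Sod1 (13.07), Tmem205 (11.35) and S100a1 (11.50), and low for Mtss2 (9.90), Palld (9.90), Col6a5 (9.09), Emilin1 (8.94) and Thbs1 (11.25).

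The list scores of DR replicate 2 were high for respiratory complex I (0.59), II (0.36), III (0.57), IV (0.66), the ATP synthase (0.54), the mitochondrial ribosome (0.46), the proteasome (0.38), cholesterol synthesis (0.14) and glutathione genes (0.38). They were low for collagen chains (-0.35), other matrix genes (-0.33), non-myelinating Schwann cell markers (-0.21) and perineurial markers (-0.58).

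HFD replicate 5 stood apart for Mtss2 (10.18), Mrpl27 (10.18), Sod1 (12.63) and the mitochondrial ribosome score (0.18). Single values stood apart for Saa3 in DR replicate 1 (5.89), Kif11 in HFD replicate 4 (6.18), Tap1 in DR replicate 4 (9.77) and in HFD replicate 2 (8.73), and Ucp3 in DR replicate 7 (9.21). DR replicate 5 stood apart for Usp18 (8.18) and Ifit3b (10.42).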

How the results depend on the processing

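No paired analysis was possible because replicate numbers follow accession order and no label pairs the libraries. The main count of called genes, 0 of 16966, became 5 in a fit of the 13 libraries alone, 1 without a filter on low values (Chrm4, named after its values were seen), 47 with library quality weights (19 higher, 28 lower) and 113 with marker scores as covariates (15 higher, 98 lower). With each library left out it was 0 to 11, the 11 coming without HFD replicate 3. Filtering over all nerve libraries, quantile normalisation, median centring and an untrended prior gave 0. The cause was not tested.

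Genes at an unadjusted p under 0.05 numbered 1260 (686 higher, 574 lower), 2718 with weights (1382 and 1336) and 2489 with covariates (1102 and 1387). Leaving out each library gave 716 to 2265 in all, 338 to 1201 higher and 320 to 1064 lower, with 716 without HFD replicate 6, 751 without DR replicate 2, 831 without HFD replicate 4 and 2265 without HFD replicate 5. The share higher was 54.4%, against 43.4% in the 13 libraries alone, 44.3% with covariates and 45.0% without DR replicate 2. Leaving out DR replicate 2 and HFD replicate 5 together, added after seeing the data, gave 0 called. The tissue difference called 285 genes with weights and 2 with covariates, against 0.

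Signs reversed for Adipoq (-0.05 with covariates; -0.03 to 0.37 over left-out libraries), Cyp1a1 (-0.01 with covariates) and Angptl4 (-0.32 to 0.00 over left-out libraries). Of 2300 values for 100 genes, 2239 kept direction and call, 57 were newly called and 4 reversed. The fibroblast list median was 0.21 with weights, against 0.08, a move of more than 1 SD of its score between libraries. Medians of other lists moved by less than that SD, but the skeletal muscle median changed sign and those of the adipocyte, mast cell and respiratory lists moved by over 1.5 times when 1 library was left out. The unknown depth limits what low genes can show.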
